A study of Arabidopsis thaliana with 12 samples.

Results

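The 10 genes described here encode the 4 small subunits of Rubisco (RBCS1A, RBCS1B, RBCS2B and RBCS3B), Rubisco activase (RCA) and 5 plastid enzyme subunits of the Calvin cycle: GAPA, GAPB, fructose-1,6-bisphosphatase (FBPase, AT3G54050), SBPASE and phosphoribulokinase (PRK). They were chosen by locus identifier, 10 of the 32833 genes in the count table, and all 10 passed the filter on low counts, as did 20471 genes in all. RNA was sequenced from Arabidopsis thaliana seedlings harvested at 12 days after germination, with 3 libraries from each of 4 genotypes. The first genotype was nrpb2-3, a mutant of the gene for the second-largest subunit of RNA polymerase II. The next were ssrp1-2 and spt16-2, mutants of the genes for both subunits of FACT, a histone chaperone that works on nucleosomes during transcription. The last was the wild type Col-0 (Columbia-0). All plants grew on a soil mix in long days at about 21 °C after 4 days of cold at 4 °C, and the labels describe no lesion, name no other allele or agent, and give no treatment that sets 1 genotype apart. Nothing in the labels ties the replicates to separate sowings or pots, so p-values measure the spread between these libraries, which may be technical.

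Rubisco joins carbon dioxide to ribulose-1,5-bisphosphate in the chloroplast stroma. Its large subunit is made from a chloroplast gene and its small subunit from a nuclear gene family, so the nucleus and the plastid each supply part of 1 enzyme. The rest of the Calvin cycle reduces the product to sugar phosphates and rebuilds the acceptor, and several of its enzymes are switched on in the light by thioredoxins. In leaves the transcripts of these genes are among the most abundant of all nuclear transcripts, and light and plastid state control their level.

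The libraries held 39483328 to 43434901 counts. Levels are given as scaled CPM, counts corrected for depth by TMM scaling (a factor per library from the bulk of its genes), and as mean ± SD with n = 3 libraries. Each fold change is a log2 value with its SE, fitted with edgeR over the whole table, and a gene was called by edgeR's quasi-likelihood test when its Benjamini-Hochberg adjusted p over those genes was under 0.05. SSRP1 stood at 17.9 to 20.7 scaled CPM in ssrp1-2, against 38.9 to 48.4 in Col-0. SPT16 stood at 27.8, 55.4 and 30.01 scaled CPM in spt16-2, against 44.9 to 62.0 in Col-0, so the library labelled spt16-2 replicate 2 lay within the Col-0 range. NRPB2 RNA was at 65.4 to 69.2 scaled CPM in nrpb2-3, against 36.5 to 47.3 in Col-0, which does not check that label. Col-0 replicate 1 held 0.474% of its counts in organelle genes, against at most 0.207% in the other libraries.

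The sequences upstream of the genes are shown because the G-box (CACGTG) and the I-box (GATAAG) are classical elements of light-regulated RBCS promoters. Whether these elements bear on the levels in nrpb2-3 was not tested. All 10 loci were found in the RefSeq annotation of build TAIR10.1, and both strands were searched over 250 bases upstream of the outermost annotated start. The promoters of RBCS2B (chr5:15382072-15382321, minus strand) and FBPase (chr3:20016587-20016836, plus strand) held both elements, which 0.922% of 27443 protein-coding promoters did. Capitals mark G-boxes, I-boxes (GATAAG or its reverse complement CTTATC) and, in FBPase, TTTATA, the reverse complement of the TATA box letters TATAAA.
RBCS2B: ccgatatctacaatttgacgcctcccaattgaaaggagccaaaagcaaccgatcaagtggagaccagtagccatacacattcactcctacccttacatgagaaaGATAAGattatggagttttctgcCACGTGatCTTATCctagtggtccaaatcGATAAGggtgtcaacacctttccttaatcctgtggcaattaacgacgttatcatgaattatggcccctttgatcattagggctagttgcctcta
FBPase: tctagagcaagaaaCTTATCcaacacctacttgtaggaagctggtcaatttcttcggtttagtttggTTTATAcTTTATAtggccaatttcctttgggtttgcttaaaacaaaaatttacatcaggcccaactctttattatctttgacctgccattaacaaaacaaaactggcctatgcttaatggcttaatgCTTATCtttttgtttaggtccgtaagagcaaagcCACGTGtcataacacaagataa

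From the outermost start, a G-box was found in RBCS2B, FBPase and PRK, 3 of the 10 genes, against 6.49% of all promoters. An I-box was found in RBCS2B, RCA and FBPase, against 12.3% of all promoters, and the TATA box letters in RBCS1A, RBCS1B, FBPase and SBPASE, against 47.4%. Only SBPASE held TATAAA on the strand of the gene, 153 bases upstream. RBCS1A, RBCS1B and FBPase held only the reverse complement. Several of these genes have more than 1 annotated start. Counted from the innermost annotated start, a choice made after the data were seen, a G-box lay within 250 bases in RBCS1A, RBCS2B, RBCS3B, RCA, FBPase and PRK, 6 of the 10 genes, against 6.68% of all promoters. An I-box then lay there in all 4 RBCS genes and FBPase, against 12.6%, and both elements in RBCS1A, RBCS2B, RBCS3B and FBPase, against 0.995%. GAPA, GAPB and SBPASE held neither element from either start. In 3 of the RBCS genes an I-box and a G-box stood in the same order at nearly the same spacing, 24 bases from start to start in RBCS1A and 23 in RBCS2B and RBCS3B. The 30 bases from the first I-box of each RBCS gene are shown to compare that arrangement, with both elements in capitals. In RBCS1B a pair of overlapping I-boxes stood there, and no G-box was found in its window.
RBCS1A: GATAAGattcatggaattatcttcCACGTG
RBCS1B: GATAAGATAAGggtgtcaacacctttcctt
RBCS2B: GATAAGattatggagttttctgcCACGTGa
RBCS3B: GATAAGataatggagttttctgcCACGTGg

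These stretches lie at chr1:25049503-25049532, chr5:15385296-15385325, chr5:15382188-15382217 and chr5:15378517-15378546, all on the minus strand, in the order shown, and start 108 (RBCS1A), 78 (RBCS1B), 146 (RBCS2B) and 130 (RBCS3B) bases before the innermost start. A match is a description of the letters and not of a bound site, and a window with no match says only that these letters are not in it.

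RBCS1B, RBCS2B and RBCS3B stand side by side on chromosome 5 (chr5:15383167-15385320, chr5:15380907-15382071 and chr5:15376988-15378642), and RBCS1A stands on chromosome 1 (chr1:25048158-25049667). The coding sequences of the chromosome 5 genes were 96.7% to 97.3% identical to each other and 90.4% to 90.6% identical to that of RBCS1A. The encoded proteins were 96.7% to 97.8% identical among the chromosome 5 genes and 91.1% to 92.8% identical to RBCS1A. Bases 20 to 79 of the coding sequences are shown because reads can tell the copies apart only at such differences, and capitals mark the 16 columns that vary among the 4 genes. This stretch was picked as the gap-free 60 columns with the most variable columns. The whole alignment of 561 columns held 63 variable columns without a gap.
RBCS1A: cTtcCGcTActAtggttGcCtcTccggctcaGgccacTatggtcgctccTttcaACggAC
RBCS1B: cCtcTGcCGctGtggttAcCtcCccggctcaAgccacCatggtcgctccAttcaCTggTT
RBCS2B: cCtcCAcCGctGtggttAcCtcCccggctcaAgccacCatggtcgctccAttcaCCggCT
RBCS3B: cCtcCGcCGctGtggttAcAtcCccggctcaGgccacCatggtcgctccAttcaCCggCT

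Along whole transcripts, 7.30% of the 100-base windows of RBCS1B and 12.1% of those of RBCS3B also occurred in another RBCS transcript, against 0% for RBCS1A and for RBCS2B. Of the 50-base windows, 21.4% in RBCS2B, 18.4% in RBCS3B, 13.8% in RBCS1B and 1.48% in RBCS1A were shared, and the read length is not given in the sources used here. How the authors counted reads that match several genes is not given in the sources used here, so the split among the chromosome 5 genes is uncertain, and the 4 genes were also tested as a sum.

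Together the 10 genes took 3.70% ± 0.576 of all counts in nrpb2-3, 6.28% ± 0.341 in ssrp1-2, 6.28% ± 0.775 in spt16-2 and 6.51% ± 0.437 in Col-0. The 4 RBCS genes alone took 2.54% ± 0.404 in nrpb2-3, 4.48% ± 0.265 in ssrp1-2, 4.53% ± 0.640 in spt16-2 and 4.73% ± 0.351 in Col-0. In nrpb2-3 all 10 genes were called lower than in Col-0 (8 of them with library totals and no scaling factor), where 15.1% of the genes tested were called lower and 15.8% higher. In all 10 the highest nrpb2-3 library lay below the lowest Col-0 library in scaled CPM, as did 19.9% of the genes tested. In CPM from library totals alone, GAPA and PRK overlapped Col-0. There GAPA reached 2472 in nrpb2-3 replicate 1, against 2186 to 2296 in Col-0. PRK reached 1300 in nrpb2-3 replicate 2, against 1298 in Col-0 replicate 2. In ssrp1-2 and in spt16-2 none of the 10 was called against Col-0, where 0.557% and 0.42% of the genes tested were called in either direction. In bulk seedling RNA, fewer cells of a type and less RNA per cell cannot be told apart.

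**Figure D1:**
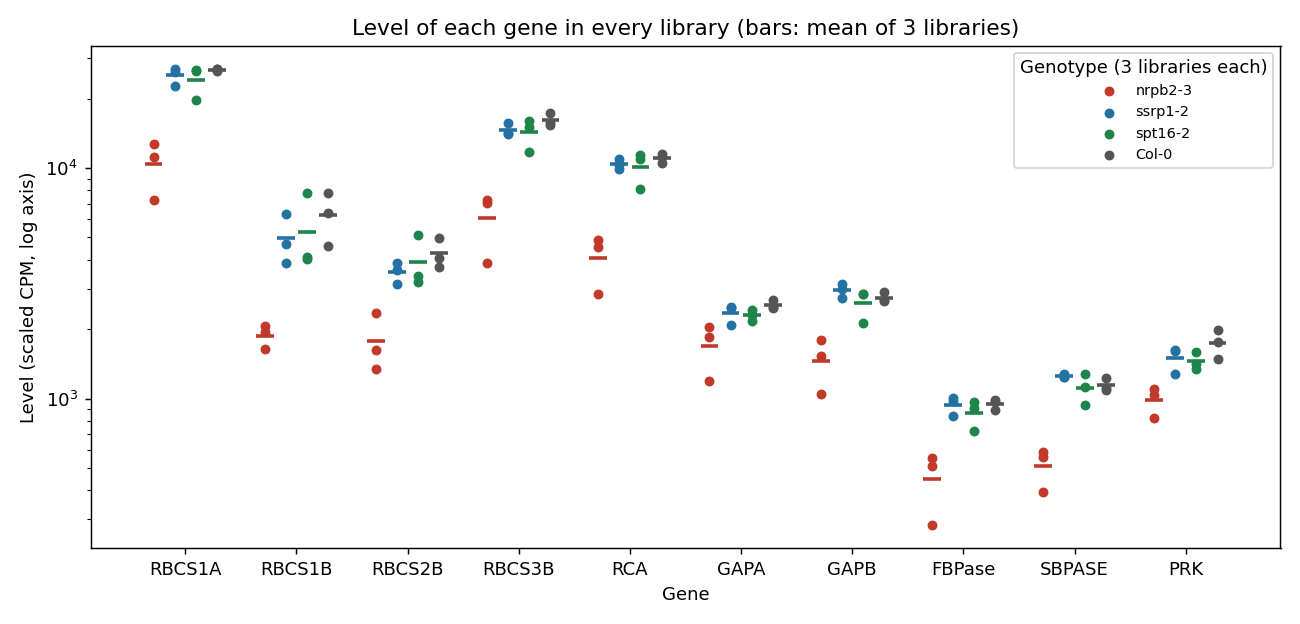
Level of each gene in each of the 12 libraries, in scaled CPM on a log axis, with genotypes side by side and a bar at the mean of 3 libraries. For each gene the 3 nrpb2-3 points lie below every Col-0 point, while the ssrp1-2 and spt16-2 points overlap those of Col-0 in most genes.

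Per length, the order of the genes was nearly the same in every genotype. Counts over gene length, set to the same total in each library as TPM, put RBCS1A first at 16409 ± 2728 TPM in nrpb2-3, 27723 ± 897 in ssrp1-2, 27463 ± 2393 in spt16-2 and 27663 ± 1743 in Col-0. RBCS1A was the transcript with the second-highest mean of all genes in each of the 4 genotypes, and RBCS3B the third. After them came RCA, RBCS2B and RBCS1B, then GAPA and GAPB, then PRK, SBPASE and FBPase. Neighbours that overlapped were RCA and RBCS2B in nrpb2-3 (3219 to 4396 and 3305 to 4685 TPM) and in Col-0 (6520 to 7331 and 5218 to 7373), and GAPA and GAPB in both. RBCS2B and RBCS1B (3164 to 5722 TPM) also overlapped in Col-0. In nrpb2-3 RBCS1B (1941 to 2063 TPM) overlapped GAPA (1622 to 2221), and SBPASE (538 to 623) overlapped FBPase (406 to 623). FBPase was lowest, at 540 ± 116 TPM in nrpb2-3 and 753 ± 23.8 in Col-0. Only in the place of GAPA and GAPB did the order of means differ among genotypes: GAPA stood above GAPB in nrpb2-3, and GAPB above GAPA in ssrp1-2, spt16-2 and Col-0.

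RBCS1A (AT1G67090), which encodes the most abundant small subunit transcript here, stood at 12765, 11222 and 7271 scaled CPM in nrpb2-3, against 26414, 26940.1 and 26872 in Col-0. The Col-0 libraries lay close together and the nrpb2-3 libraries lay well below them, with replicate 3 the lowest. The fold change was −1.36 ± 0.23 (2.57-fold lower, adjusted p = 0.0010). RBCS3B (AT5G38410) stood at 7286, 7087 and 3885 scaled CPM in nrpb2-3, against 17398, 15439 and 15696 in Col-0. Again nrpb2-3 replicate 3 was the lowest, and the fold change was −1.41 ± 0.24 (2.66-fold lower, adjusted p = 0.00093).

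RBCS1B (AT5G38430) had the widest difference of the 10 genes. It stood at 1936, 2055 and 1640.1 scaled CPM in nrpb2-3, against 6403, 4586 and 7825 in Col-0. Here the Col-0 libraries varied most, and the groups did not overlap. The fold change was −1.74 ± 0.29 (3.34-fold lower, adjusted p = 0.00079). RBCS2B (AT5G38420) stood at 1628, 2357 and 1346 scaled CPM in nrpb2-3, against 4083, 3734 and 4977 in Col-0, with a fold change of −1.26 ± 0.24 (2.40-fold lower, adjusted p = 0.0017). Its highest nrpb2-3 library was replicate 2, and the groups did not overlap. With the 4 RBCS genes summed, the sum and the 6 other genes were all called lower, 7 of 7. In that fit 3094 of 20468 entries tested were called lower.

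RCA (AT2G39730) encodes the ATPase that frees Rubisco active sites of bound sugar phosphates. It stood at 4864, 4560.3 and 2839 scaled CPM in nrpb2-3, against 11499.8, 10483 and 11119.8 in Col-0. The nrpb2-3 libraries all lay far below the lowest Col-0 library, and the fold change was −1.43 ± 0.22 (2.70-fold lower, adjusted p = 0.00050).

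GAPA (AT3G26650) and GAPB (AT1G42970) encode subunits A and B of the plastid glyceraldehyde-3-phosphate dehydrogenase that spends NADPH to reduce the product of carbon fixation. Another gene, GAPA2, also encodes subunit A. GAPA stood at 2049.6, 1846 and 1193 scaled CPM in nrpb2-3, against 2671, 2491 and 2483 in Col-0, the narrowest difference of the 10 genes. Its fold change was −0.59 ± 0.19 (1.5-fold lower, adjusted p = 0.028). This call was lost without any 1 of the Col-0 libraries (adjusted p = 0.070, 0.057 and 0.053 without replicates 1, 2 and 3), though not without any 1 of the nrpb2-3 libraries. With library totals and no scaling factor GAPA was at −0.07 ± 0.12 (adjusted p = 0.63), and in TPM it stood at 1934 ± 301 in nrpb2-3 and 1905 ± 53.3 in Col-0. GAPB stood at 1799, 1537 and 1049 scaled CPM in nrpb2-3, against 2890.0, 2643 and 2676 in Col-0. Its fold change was −0.90 ± 0.20 (1.87-fold lower, adjusted p = 0.0040).

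FBPase and SBPASE are thioredoxin-activated phosphatases that make the rebuilding of the acceptor irreversible. FBPase stood at 512, 554 and 282 scaled CPM in nrpb2-3, against 971, 983 and 896 in Col-0, with a fold change of −1.08 ± 0.21 (2.12-fold lower, adjusted p = 0.0023). SBPASE (AT3G55800), found in the Calvin cycle but not in glycolysis, stood at 556, 586 and 394 scaled CPM in nrpb2-3, against 1113, 1089 and 1227 in Col-0. Both genes were lowest in nrpb2-3 replicate 3. The fold change of SBPASE was −1.16 ± 0.17 (2.23-fold lower, adjusted p = 0.00033), the smallest adjusted p of the 10 genes.

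PRK (AT1G32060) makes ribulose-1,5-bisphosphate, the acceptor that Rubisco uses. It stood at 1039, 1099 and 823 scaled CPM in nrpb2-3, against 1985, 1479 and 1765 in Col-0, with a fold change of −0.82 ± 0.17 (1.77-fold lower, adjusted p = 0.0029). With library totals and no scaling factor it was at −0.29 ± 0.14 (adjusted p = 0.094). PRK overlaps a gene on the opposite strand whose counts came to 4.6% of its own, and RCA, GAPA and FBPase overlap genes with 0.033%, 0.532% and 0.104% of their counts. Whether counting used strand is not given in the sources used here.

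**Figure D2:**
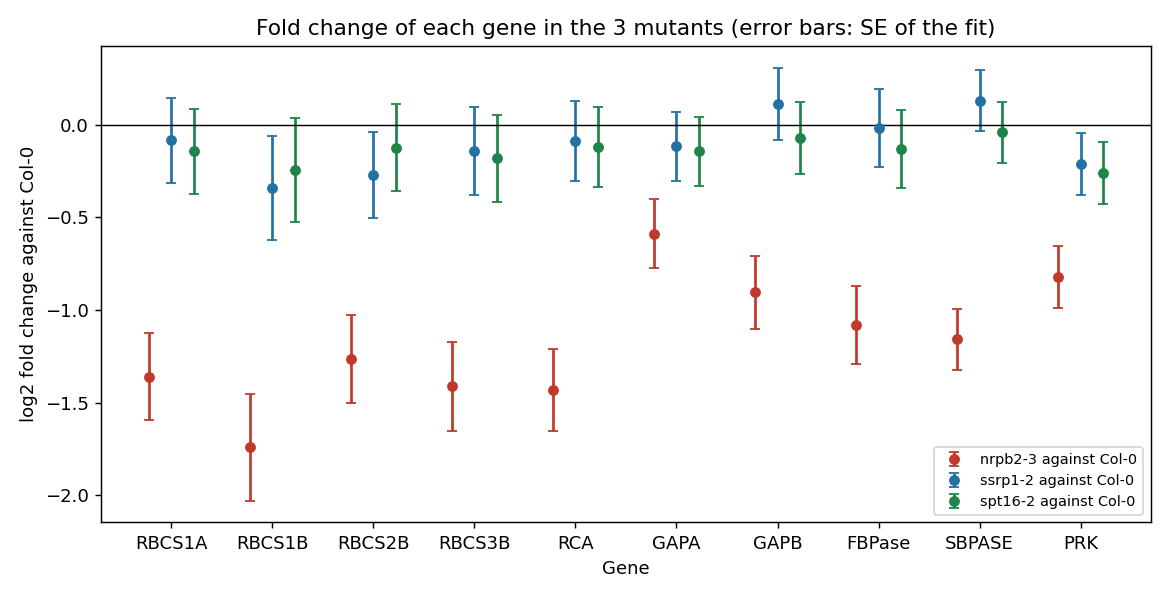
Fold change of each gene against Col-0 in nrpb2-3, ssrp1-2 and spt16-2 (log2, y axis), with bars of 1 SE from the edgeR fit. The nrpb2-3 points run from −1.74 (RBCS1B) to −0.59 (GAPA), and the ssrp1-2 and spt16-2 points from −0.34 to 0.13.

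The scaling bears on the size of all these values. The TMM factors ran from 1.183 to 1.474 in nrpb2-3 and from 0.849 to 1.03 in the other 9 libraries. With library totals alone, the median change over all genes in nrpb2-3 was 0.59 (log2), against 0.05 with TMM, and the calls to 10688 higher and 758 lower, against 3238 higher and 3097 lower. On that scale 8 of the 10 genes were still called lower, with a median of −0.70, and GAPA and PRK were not called.

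Other abundant transcripts were lower in nrpb2-3 as well. The median fold change was −1.21 over the 10 genes and 0.05 over all genes tested. Among the 120 other genes whose mean level was at least that of FBPase, the least abundant of the 10, the median was −0.98. Their values ran from −2.06 to −0.03, all below 0, with 99 called lower and 0 higher. The shares of counts of such genes depend on each other, and their part in the result was not tested.

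**Figure D3:**
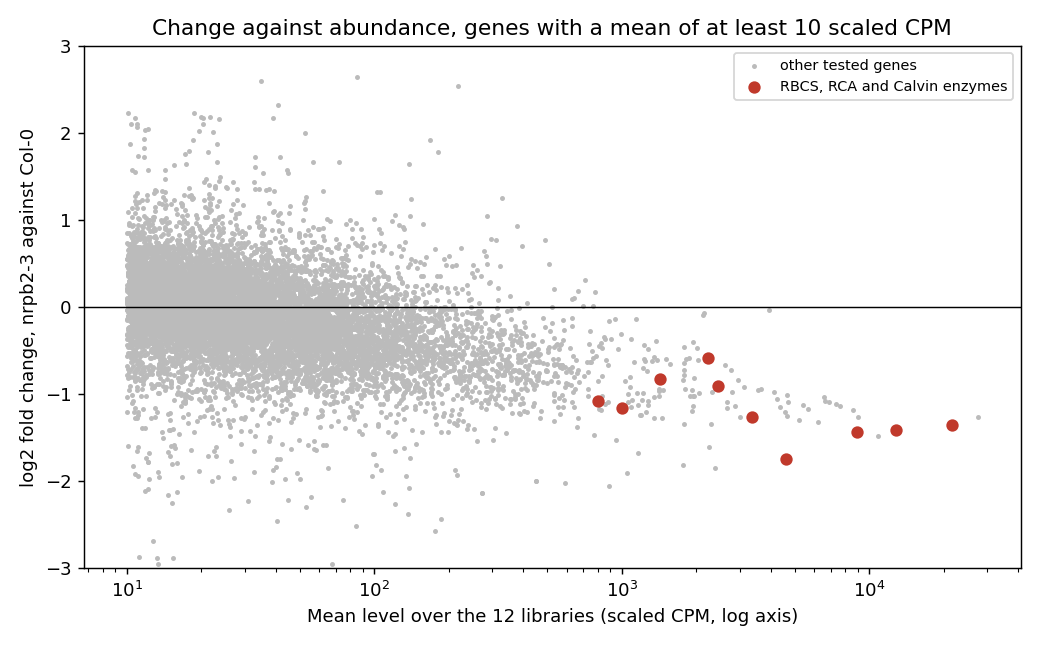
Fold change in nrpb2-3 against Col-0 (log2, y axis) against mean level over the 12 libraries (scaled CPM, log axis) for the tested genes with a mean of at least 10 scaled CPM, with the 10 genes in red. The 17 genes beyond 3 log2 units are not drawn. The red points lie at −1.74 to −0.59, at the abundant end. The grey points of the 120 other genes at least as abundant as FBPase also all lie below 0, at −2.06 to −0.03.

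Within nrpb2-3, replicate 3 held the lowest share of counts in the 10 genes, 3.05%, against 4.15% and 3.89% in replicates 1 and 2. All 10 genes lay below their group mean in that library, with a median deviation of −0.46 on the log2 scale. Without it the 10 genes were all still called lower, with a median of −1.06, where 2369 of 20665 genes tested were called lower. The library labelled spt16-2 replicate 2 likewise had all 10 genes below the mean of its group, with a median deviation of −0.27. Without both nrpb2-3 replicate 3 and Col-0 replicate 1, an alternative chosen after seeing the data, 9 of the 10 were called lower and GAPA was not (−0.36 ± 0.13, adjusted p = 0.072). There 2188 of 20620 genes tested were called lower.

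In the FACT mutants none of the fold changes of the 10 genes passed the test. In ssrp1-2 against Col-0 they ran from −0.34 ± 0.28 (RBCS1B, adjusted p = 0.79) to 0.13 ± 0.16 (SBPASE, adjusted p = 0.89), with a median of −0.10. SBPASE stood at 1274, 1236 and 1242 scaled CPM in ssrp1-2, against 1113, 1089 and 1227 in Col-0. These groups did not overlap, 1 of the 10 genes, where 8.09% of the genes tested lay wholly above Col-0 and 5.73% wholly below it. In spt16-2 against Col-0 they ran from −0.26 ± 0.17 (PRK, adjusted p = 0.76) to −0.04 ± 0.16 (SBPASE, adjusted p = 0.98), with a median of −0.14. GAPA stood at 2435, 2169 and 2313 scaled CPM in spt16-2, below all of its Col-0 libraries, where 5.77% of the genes tested lay wholly below Col-0 and 7.38% wholly above it.

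Without the library labelled spt16-2 replicate 2 the median in spt16-2 was −0.02 and again 0 of the 10 were called. In that fit 1 of 20839 genes tested was called lower and 35 higher. Between the FACT mutants, spt16-2 against ssrp1-2, none of the 10 was called, where 0.0684% of the genes tested were called in either direction, and the values ran from −0.19 (GAPB) to 0.15 (RBCS2B). A p that misses the threshold does not show that the levels were alike: the SE of these values was 0.16 to 0.28.

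Against the mean of ssrp1-2 and spt16-2, nrpb2-3 again had all 10 genes lower, where 15% of the genes tested were called lower. RBCS1B was at −1.45 ± 0.26 (adjusted p = 0.0012), RCA at −1.33 ± 0.20 (adjusted p = 0.00037), SBPASE at −1.20 ± 0.15 (adjusted p = 0.00012) and PRK at −0.58 ± 0.15 (adjusted p = 0.0094). The PRK call was lost with library totals and no factor (−0.15, adjusted p = 0.31). GAPA was at −0.46 ± 0.16 (adjusted p = 0.048), and its call was lost in 11 of 19 alternatives. This comparison and that with Col-0 share the nrpb2-3 libraries.

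Whether the make-up of the RBCS family differed was asked from the share of each gene in the 4, per length, which needs no scaling between libraries. RBCS1A made up 53.2% ± 2.66 in nrpb2-3, 54.2% ± 3.35 in ssrp1-2, 52.9% ± 2.88 in spt16-2 and 52.2% ± 2.43 in Col-0. RBCS3B made up 27.7% ± 1.85 in nrpb2-3, 28.3% ± 0.444 in ssrp1-2, 28.02% ± 0.850 in spt16-2 and 28.4% ± 1.76 in Col-0. RBCS2B made up 12.5% ± 2.49 in nrpb2-3 and 11.3% ± 1.3 in Col-0. The share of RBCS1B was 6.64% ± 1.23 in nrpb2-3 and 8.14% ± 1.81 in Col-0. In all 12 comparisons of a share with Col-0 the libraries overlapped (exact two-sided permutation test, p = 0.2 to 0.9, adjusted p = 0.9, where this test on 3 against 3 cannot give a p under 0.1). The RBCS1B share was highest in the library numbered 3 in every genotype, at 8.02% in nrpb2-3, 9.50% in ssrp1-2, 9.81% in spt16-2 and 9.89% in Col-0, and the test took no account of these numbers. In the order of their numbers, the libraries had RBCS1B shares of 5.68%, 6.21% and 8.02% in nrpb2-3, 6.37%, 5.64% and 9.50% in ssrp1-2 and 5.78%, 7.23% and 9.81% in spt16-2, against 8.26%, 6.27% and 9.89% in Col-0. Each nrpb2-3 and each ssrp1-2 library lay below the Col-0 library of its number, an order looked at after the values were seen and not tested.

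The ratio of GAPB to GAPA, per length and within a library, was compared across genotypes. On the log2 scale it was −0.27, −0.35 and −0.27 in nrpb2-3, 0.26, 0.19 and 0.31 in ssrp1-2, and 0.14, −0.12 and 0.21 in spt16-2, against 0.03, 0.00 and 0.03 in Col-0. The nrpb2-3 libraries all lay below Col-0 and the ssrp1-2 libraries all above it, while the spt16-2 libraries overlapped Col-0. The differences from Col-0 were −0.32 in nrpb2-3 and 0.23 in ssrp1-2 (exact two-sided permutation test, p = 0.1 each, the smallest that this test allows for 3 against 3, adjusted p = 0.15 each), and 0.06 in spt16-2 (exact p = 0.7). Without any 1 library the difference was −0.33 to −0.29 in nrpb2-3 and 0.21 to 0.26 in ssrp1-2. Neither gene was called in ssrp1-2 by itself. A second gene for the A subunit, GAPA2, is not in this ratio. It stood at 1107 ± 323 scaled CPM in nrpb2-3, 2737 ± 279 in ssrp1-2 and 2815 ± 93.7 in Col-0. GAPA stood at 1696 ± 448, 2352 ± 232 and 2548 ± 106 in the same genotypes. The ratio therefore does not give the balance of B to A subunit transcripts, and GAPB against both A genes together was not tested.

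**Figure D4:**
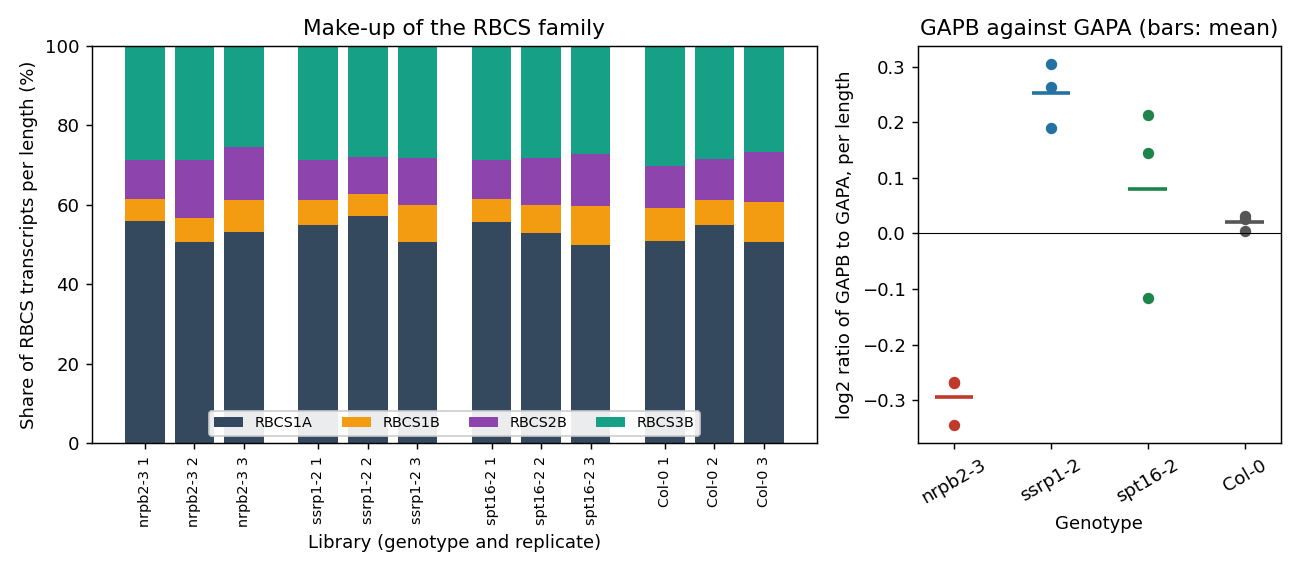
Left, the share of each RBCS gene in the family per length (%) in each library, and right, the log2 ratio of GAPB to GAPA per length, with a bar at the mean of 3 libraries. The RBCS shares overlap between genotypes, and the ratio lies at −0.35 to −0.27 in nrpb2-3, 0.19 to 0.31 in ssrp1-2 and 0.00 to 0.03 in Col-0.

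The genes around these 10 were read from 7 lists. Of 15 other Calvin cycle genes, 11 fell in nrpb2-3 and 0 rose (median −0.95), where 15.1% of all genes tested were called lower and 15.8% higher, and 82.5% of the other genes at least as abundant as FBPase were called lower. The ribose-5-phosphate isomerase RPI3 was at −1.07 ± 0.15 (adjusted p = 0.00034) and GAPA2, the second gene for the A subunit, at −1.35 ± 0.21 (adjusted p = 0.00058). The ribulose-phosphate epimerase RPE was at −0.94 ± 0.15, and CP12-2, which holds GAPDH and PRK in an inactive complex in the dark, at −1.35 ± 0.21. The aldolase FBA3 (0.36 ± 0.15), the transketolase TKL2 (0.24 ± 0.15), CP12-3 (0.74 ± 0.40) and a second plastid fructose-bisphosphatase, FBPase2 (−0.50 ± 0.20), were not called.

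Of 13 genes for the assembly and upkeep of Rubisco, 9 fell and 1 rose (median −0.58), against 15.1% of all genes called lower and 15.8% higher. Among those that fell were CBBY, a phosphatase that clears an inhibitor of Rubisco (−1.10 ± 0.15), the assembly chaperone BSD2 (−0.83 ± 0.11), RBCX2 (−0.91 ± 0.14) and RBCX1 (−1.22 ± 0.21). The chaperonin subunit CPN60B3 rose (0.59 ± 0.14, adjusted p = 0.0070), and was named after its value was seen. All 9 genes of thioredoxin activation fell (median −0.95), among them FTRB, the catalytic subunit of ferredoxin-thioredoxin reductase (−0.97 ± 0.15), and the m-type thioredoxins TRXM1 (−1.11 ± 0.18), TRXM2 (−0.90 ± 0.15) and TRXM4 (−1.14 ± 0.19). All 15 genes of photorespiration, the pathway that recovers carbon after Rubisco has used oxygen, fell as well (median −0.85). Glycerate kinase GLYK was at −1.03 ± 0.14, the glycine decarboxylase subunit gene GDCH3 at −1.002 ± 0.17, the glycolate and glycerate transporter PLGG1 at −1.19 ± 0.20 and glycolate oxidase GOX2 at −0.85 ± 0.15.

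Of 16 genes of starch and sucrose synthesis, 6 fell and 3 rose (median −0.28), and the share that rose was near the 15.8% of all genes called higher. The cytosolic fructose-bisphosphatase of sucrose synthesis, cyFBP, fell by 1.36 ± 0.15 on the log2 scale and the plastid phosphoglucomutase PGM1 by 0.75 ± 0.14. The granule-bound starch synthase GBSS1 rose by 1.72 ± 0.23 (adjusted p = 0.00027), as did APL4 (1.29 ± 0.22) and APL3 (1.34 ± 0.27), large-subunit genes of ADP-glucose pyrophosphorylase, of which APL3 was named after its value was seen. Of 9 cytosolic counterparts of the plastid enzymes, FBA5 (−2.02 ± 0.35) and FBA4 (−0.53 ± 0.18) fell and the other 7 were not called (median −0.30), a share called lower not far from the 15.1% of all genes. Of 13 regulators of light response and plastid genes, only the phytochrome-interacting factor gene PIF3 was called (0.96 ± 0.16, adjusted p = 0.00086), where 15.8% of all genes were called higher. The plastid activators GLK1 (−0.29 ± 0.19, adjusted p = 0.27) and GLK2 (−0.10 ± 0.30, adjusted p = 0.82) and the light regulator HY5 (0.51 ± 0.21, adjusted p = 0.085) were not called. In ssrp1-2 and in spt16-2 against Col-0, 0 genes of these 7 lists were called.

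**Figure D5:**
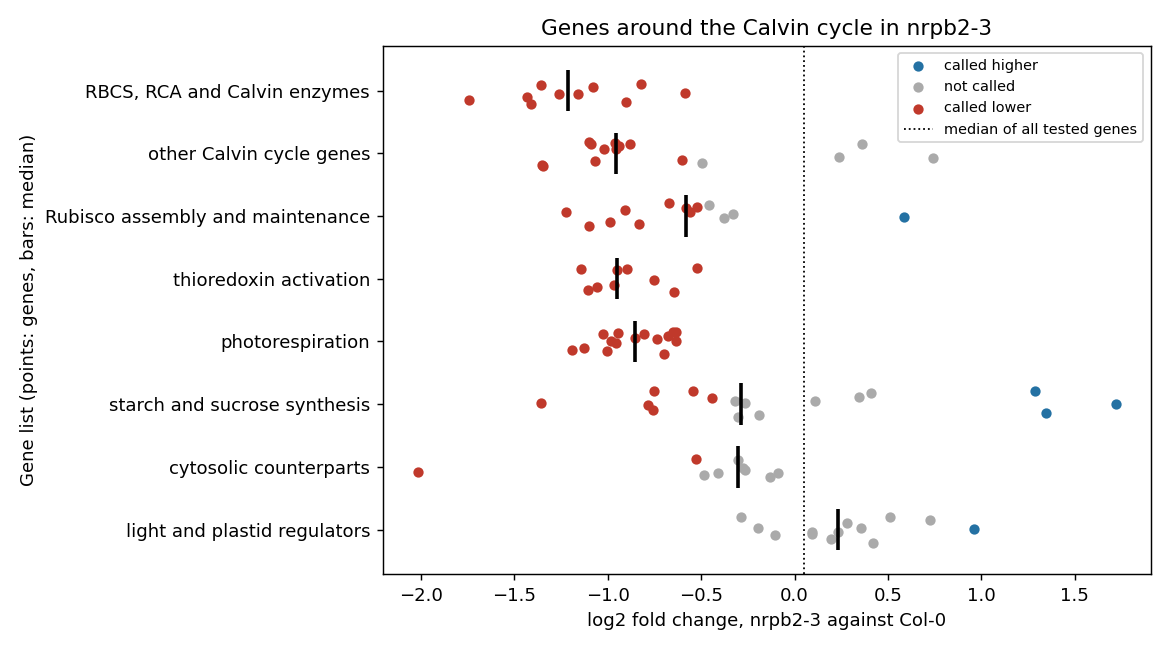
Fold change in nrpb2-3 against Col-0 (log2, x axis) of each gene in the 10-gene set and in the 7 lists around it, coloured by call, with a bar at each list's median and a dotted line at the median of all genes tested, 0.05. The points of thioredoxin activation and photorespiration all lie below −0.5, and those of light and plastid regulators lie on both sides of 0.

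Across the 12 libraries, the genes whose log2 level followed the mean of the 10 most closely, of 10855 with a mean of at least 10 scaled CPM, were RPI3 (annotated EMB3119, r = 0.99), the carbonic anhydrase gene CA1 (r = 0.99), PETC, the Rieske protein of the cytochrome b6f complex (r = 0.99), GAPA2 (r = 0.99), the lumen cyclophilin CYP38 (r = 0.99) and AT3G24160 (PMP, r = 0.99). These values describe likeness over libraries that share genotype and scaling. Each of the 10 followed the mean of the other 9 with r = 0.90 (GAPA and RBCS1B) to 0.99 (RBCS3B).

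Markers of cell types moved in nrpb2-3 too. All 5 mesophyll markers fell (CA1, LHCB1.3, LHCB2.1, LHCA3 and PSAD1). CA1 was also among the genes that followed the 10 most closely (r = 0.99), and whether these markers vary apart from the 10 was not tested. Of the other genes at least as abundant as FBPase, 82.5% were called lower. The summed level of the 5 markers was 14247 to 29452 scaled CPM in nrpb2-3, against 47612 to 66835 in Col-0. Of 8 shoot meristem markers, 5 of the 6 tested rose in nrpb2-3, of which only STM was also called in ssrp1-2. Over all genes tested, 15.8% were called higher in nrpb2-3 and 0.454% in ssrp1-2. CUC2 rose in ssrp1-2 and was not called in nrpb2-3 (0.31 ± 0.29, adjusted p = 0.45), and WUS and CLV3 were too low to test. Their summed level was 39.4 to 46.9 scaled CPM in nrpb2-3, 26.9 to 30.2 in ssrp1-2 and 15.5 to 24.8 in spt16-2, against 5.21 to 12.1 in Col-0. Of 4 markers each, 1 of epidermis, 2 of guard cells and 2 of vascular tissue fell in nrpb2-3, and none rose, where 15.1% of all genes were called lower. The summed vascular level was 143 to 234 scaled CPM in nrpb2-3, against 350 to 456 in Col-0. For guard cells it was 27.1 to 31.5 against 37.8 to 48.1, and for epidermis 568 to 595 against 593 to 723. Lists this short show no more than these values. Of 6 root markers only SCR and SHR were tested and SHR rose, where 15.8% of all genes were called higher. The root hair gene RHD6 was at 0 in all genotypes, and EXPA7 and TIP2;3 were at 0 in Col-0. The summed level was 52.9 to 59.1 scaled CPM in nrpb2-3, against 38.0 to 46.5 in Col-0. Nearly all of it was SCR (means of 34.8 in nrpb2-3 and 28.1 in Col-0) and SHR (20.6 and 13.5). The part of cell make-up in the fall of the 10 genes was not tested.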

How the data were processed

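RNA from 12 seedling libraries was measured. The authors deposited counts per gene, and per the submitters' processing notes used fastp 0.23.4, HISAT2 2.2.1 and build TAIR10; the counter, its strand setting and its treatment of shared reads are not given in the sources used here. The second deposited table holds a signal, counts over length with a library factor (columns summing to 652496 to 1181546), reset here to the same total in every library (TPM) for levels per length. Counts were fitted with edgeR 4.0.16 (R 4.3.3) on all 12 libraries by genotype, with TMM scaling and genes kept at a minimum count of 10. The depth of 39483328 to 43434901 counts per library makes counting error small beside the spread between replicates. Whether molecular identifiers marked PCR copies is not given in the sources used here, so reads cannot be taken as independent. The scripts were tested on simulated data.

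The 10 genes, the 13 lists (121 entries) and the alternatives were chosen with earlier results of these data known. Named from each list were up to 4 called genes with the smallest adjusted p and genes stated as not called, and the 6 genes with the highest correlation with the 10. Alternatives used DESeq2 1.42.0, limma 3.58.1 on log2 of the deposited signal plus 1, other scalings, no filter, a replicate block and libraries left out. Replicates of a genotype did not hold identical counts. Same-numbered libraries of the 3 mutants deviated together in every pair (r = 0.12 to 0.30). The main tests took genotype only and were not paired by these numbers, which entered only as the replicate block. Loci and sequences came from RefSeq's TAIR10.1 files, aligned with MAFFT 7.526.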

Additional observations from a re-analysis of the deposited data

How the results depend on the processing

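Of the 10 genes, 8 to 10 were called lower in nrpb2-3 against Col-0 and against the mean of the FACT mutants in each alternative run on all 10, and 0 were called in any alternative of the other 3 comparisons. In the alternatives with nrpb2-3, 758 (library totals) to 3840 (replicate block) of all genes tested were called lower. In nrpb2-3 against Col-0 the calls lost were those of GAPA (6 of 17 alternatives) and PRK (1 of 17, library totals), and against the mean of the FACT mutants those of GAPA (11 of 19) and PRK (1 of 19, library totals). GAPA was at −0.60 (adjusted p = 0.095) with the groups compared alone. The replicate block left 10 called lower against Col-0, where 3840 of 20471 genes tested were called lower. It also left 10 against the mean of the FACT mutants, where 3839 of 20471 were, and it changed no call on these genes. Same-numbered libraries of the mutants and Col-0 deviated together in replicates 2 (r = 0.21 to 0.31) and 3 (r = 0.13 to 0.25). For replicate 1 they did not all do so (r = −0.06 to 0.09). Signs of uncalled values changed in 5 cases in ssrp1-2, 8 in spt16-2 and 17 between the FACT mutants.

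Without 1 library, share differences from Col-0 (percentage points) that changed sign ran from −0.35 to 2.41 (RBCS1A) and −1.59 to 0.35 (RBCS3B) in nrpb2-3 and from −0.94 to 0.81 (RBCS3B) in ssrp1-2. In spt16-2 they ran from −0.80 to 2.08 (RBCS1A), −1.64 to 0.38 (RBCS1B), −0.55 to 1.14 (RBCS2B) and −1.24 to 0.52 (RBCS3B). The log2 ratio of GAPB to GAPA in spt16-2 ran from −0.0066 to 0.16. The cause was not tested. The lowest count of any of these genes in a library was 16555.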

Other observations

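The large subunit of Rubisco is encoded in the chloroplast by rbcL (ATCG00490), which was looked at after the values of the small subunits were seen. It stood at 7.08 ± 1.28 scaled CPM in nrpb2-3, 11.8 ± 4.84 in ssrp1-2 and 8.80 ± 2.71 in spt16-2, against 18.5 ± 10.6 in Col-0 (SD, n = 3 each). The highest value, 30.7 scaled CPM, was in Col-0 replicate 1, the library with the highest share of organelle counts, and the other Col-0 libraries stood at 13.1 and 11.7. How far the libraries capture chloroplast RNA is not given in the sources used here.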
